A study of Mus musculus with 22 samples.

Results

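RNA 3′ ends were mapped in differentiating C2C12 cells, a mouse myoblast line, with 2 differentiated libraries set against 2 proliferating libraries. These 4 libraries, chosen by their sample titles, are part of a series of 22 libraries, of which 20 were made by 3′READS, a method in which fragments that end at the poly(A) tail are read, so that each 3′ end has a position and a number of reads. Both groups carry the strain label C57BL/6, the treatment label untreated and the source label myoblast, and no siRNA or 4-thiouridine is named for either. The titles alone separate the differentiated from the proliferating state, the length and medium of differentiation are not given in the labels used here, and C2C12 is a single established line. The labels do not say whether the libraries of a state were grown as separate cultures. The p-values therefore cover the spread between these libraries only, and that spread may be technical.

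Proliferating myoblasts that leave the cell cycle fuse into multinucleate myotubes and switch on the genes of the contractile apparatus. The 3′ end of an mRNA is made by cleavage and polyadenylation, and many genes have several poly(A) sites. Use of a proximal site gives a shorter RNA, use of a distal site a longer one, and use of a site in an upstream intron or an alternative last exon can change the protein. Longer 3′ untranslated regions in differentiated than in dividing cells are a known feature of myogenesis.

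The files pair no gene name with a position. The gene annotation used here is for GRCm38.p6 and the positions are in mm9, so nuclear sites are given by their mm9 position and marker genes of myoblasts and myotubes were not analysed here. The libraries held 3259339 to 4432717 reads. A kept site had at least 1 CPM (reads scaled to library size) in at least 2 of the 12 C2C12 libraries of the series, and the kept sites held over 98% of the reads of each of the 4 libraries. Kept sites on the same strand that lay up to 5 kb from the next were joined into site groups, which stand in for genes, although one of them may cover part of a gene or more than 1 gene. A change was called at an adjusted p under 0.05 (edgeR's quasi-likelihood test, Benjamini-Hochberg over all site groups or sites tested). The libraries of both states did not overlap at 79.8% of the site groups tested. In bulk RNA, fewer cells with a transcript and less of it per cell cannot be told apart.

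Levels differed at 7344 of 11760 site groups (62.4%), with 3841 higher (32.7%) and 3503 lower (29.8%) in differentiated cells. The changes were unequal in size. Where a state had no read, the fold was taken against a floor of 3 reads over its libraries, as a lower bound, since the fitted value then depends on the prior count. Counted in this way, 587 called site groups (4.99%) rose and 137 (1.16%) fell by 10-fold or more, while 122 rose and 4 fell by 100-fold or more. Of the 122, 46 had no read in proliferating cells. No read in either proliferating library was found for 246 tested site groups, and no read in either differentiated library for 21. The most read of these had 9853 reads in differentiated cells and 99 in proliferating cells. Site groups without a read in a state passed the count filter only through the other state. All 246 and all 21 were called, so their calls are no separate support. Changes of 10-fold or more in both directions were more frequent at site groups with few kept sites. Of 4250 tested site groups with 1 kept site, 330 (7.76%) rose and 71 (1.67%) fell by this much. Of 1790 with 5 or more kept sites, 35 (1.96%) rose and 11 (0.615%) fell by this much. Site groups with 1 kept site also had a lower median level, 11.5 CPM against 70.3 CPM with 5 or more, and the part of the level in this difference was not tested. The count of higher and lower site groups turned with the scaling, as with library totals 3333 were higher and 4169 lower, and the median log2 change over all site groups was 0.02 with TMM scaling and -0.11 with library totals.

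**Figure D1:**
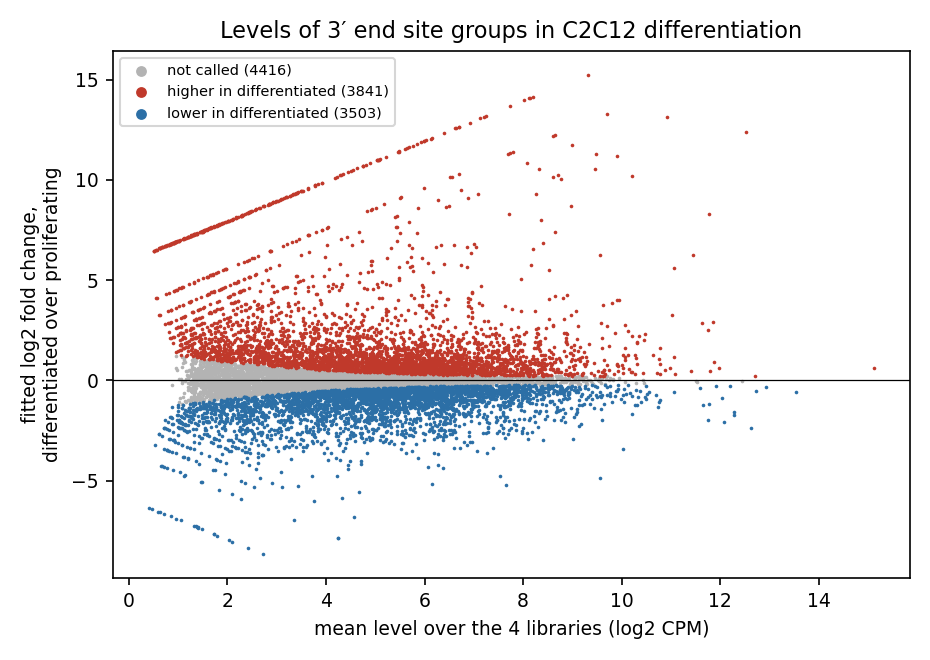
Fitted log2 fold change of each tested site group (vertical axis, differentiated over proliferating) against its mean level over the 4 libraries (horizontal axis, log2 CPM after TMM scaling), coloured by the call at an adjusted p under 0.05. The upper edge runs along the 246 site groups with no read in proliferating cells, whose fitted values depend on the prior count, and rises of at least 10-fold (587 on the floor of 3 reads) outnumber falls of that size (137).

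Several abundant 3′ ends of differentiated cells were far lower in proliferating cells, and some of them were nearly absent there. Besides the mitochondrial plus strand, the largest gain in CPM was that of the single site at 134357802 on chromosome 7, plus strand. It had 12349 and 11010.3 CPM in differentiated libraries, against 2.10 and 2.15 CPM in proliferating libraries (log2 fold change 12.40, SE 0.18, edgeR adjusted p = 2.5e-56). The site group ending at 32025661 on chromosome 14, plus strand, with nearly all reads at the site at 32024900, had 7175 and 6819.5 CPM in differentiated libraries and 20.7 and 23.0 CPM in proliferating libraries (log2 fold change 8.32, SE 0.14). On chromosome 8, minus strand, the site at 126415663 and its group had 5477 and 5558 CPM in differentiated libraries, against 75.9 and 67.7 CPM in proliferating libraries (log2 fold change 6.27, SE 0.12). Its log2 fold change was 5.51 with gaps of up to 10 kb. In each of these site groups the libraries of a state lay close together and far from the other state. No overlap was a condition of their choice.

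A further site group on chromosome 1, plus strand, with its main site at 136097811, held 30163 reads in differentiated cells and 3 in proliferating cells. Scaled to library size this is a ratio of 9750.5 (exact 95% counting interval 3336 to 47284), and counting intervals cover counting error only, since amplified reads are not independent molecules. On chromosome 11, plus strand, the site group at 104447968 to 104449582 had 2355 and 2369 CPM in differentiated libraries and 2.10 and 1.91 CPM in proliferating libraries. On chromosome 7, minus strand, the group led by the site at 149761436 had 4025 and 4348 CPM in differentiated libraries, against 95.04 and 75.6 CPM in proliferating libraries.

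Other large gains came from site groups that were already abundant before differentiation. On chromosome 1, plus strand, the group led by the site at 45405865 had 6292 and 6837 CPM in differentiated libraries, against 914 and 839 CPM in proliferating libraries (7.49-fold). Also on chromosome 1, minus strand, the group led by 71632096 had 4817 and 6377 CPM in differentiated and 702 and 840.1 CPM in proliferating libraries. The groups led by 36186455 on chromosome 19, minus strand, by 29237667 on chromosome 17, plus strand, and by 128349878 on chromosome 10, plus strand, were 5.601-fold, 9.45-fold and 1.85-fold higher. Together the 12 site groups with the largest gains, the mitochondrial plus strand included, held 103872 CPM in differentiated cells and 33949.7 CPM in proliferating cells. These groups were picked by their values, so their sum is a description only.

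Among site groups of at least 50 CPM in their higher state, the 8 with the largest fitted rise were at or near 0 in proliferating cells. The strongest, at 136188944 to 136189127 on chromosome 1, plus strand, had 1201 and 1332 CPM in differentiated libraries and no read in proliferating libraries. With 3 reads over the group as a floor, the single sites at 102459920 on chromosome 12, minus strand, and 45737920 on chromosome 17, minus strand, were at least 1467-fold and at least 1398-fold higher. On the same floor the group led by 135349128 on chromosome 7, minus strand, was at least 1415-fold and the site at 76845917 on chromosome 15, minus strand, at least 1302-fold higher. The site at 66915788 on chromosome 11, plus strand, had 1689 and 1639 CPM in differentiated libraries, against 0.300 and 0 CPM in proliferating libraries. At the positions kept from the C2C12 libraries, none of the 8 passed 3.11 CPM, on average over the 2 libraries, in untreated C2C12, NIH3T3 or 4T1 cells.

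Some site groups that rose at least 10-fold were neighbours on the chromosome. Of the 587, 110 (18.7%) lay within 50 kb of another one, in 49 clusters, while of the 137 that fell at least 10-fold 4 did (2.92%). The set that rose holds more site groups, which alone brings more of them close together, and the part of this was not tested. How many of all tested site groups lie within 50 kb of another was not counted, so the 18.7% has no background. In 9 clusters there were 3 or more. On chromosome 11, 4 of 4 tested site groups between 67010710 and 67122136, 3 on the plus strand and 1 on the minus strand, rose, and they summed to 928 CPM in differentiated cells and 0.120 CPM in proliferating cells. On chromosome 2, 4 of 4 between 26876883 and 26964496 summed to 1760 CPM in differentiated and 2.15 CPM in proliferating cells. On chromosome 7, 4 of 4 between 52869157 and 52949926 summed to 164 CPM in differentiated and 0.569 CPM in proliferating cells. On chromosome X, 3 of 3 between 132735487 and 132760639, of which 2 were on the minus strand, summed to 125 CPM in differentiated cells and had no read in proliferating cells. On chromosome 1, 3 of 4 between 136163240 and 136194952 rose at least 10-fold. Each span ran from the first to the last such riser of a cluster, so its end groups rose by construction. These fractions are therefore largely set in advance. The clusters were looked for after the values were seen.

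Most of the largest falls were of abundant site groups that kept over 1000 CPM in differentiated cells, and 1 was at 179 CPM. On the minus strand of chromosome 5, the group led by 143664796 had 2081 and 1973 CPM in differentiated libraries, against 11424 and 9632 CPM in proliferating libraries (log2 fold change -2.38, SE 0.10, edgeR adjusted p = 3e-31). On chromosome 2, plus strand, the group led by 13504452 had 1551 and 1739 CPM in differentiated and 6937 and 7101 CPM in proliferating libraries. On chromosome 3, plus strand, the group led by 90409964 had 2291 and 2258 CPM in differentiated libraries, against 8146 and 7114 CPM in proliferating libraries. The proliferating libraries were the higher ones in each case, with no overlap, as the choice of these site groups required. The 12 largest falls ranged in log2 fold change between -3.41, at the group led by 90139887 on chromosome 11, plus strand, and -0.33, at the group led by 3761617 on chromosome 4, minus strand. The call of that smallest one was lost without differentiated replicate 2 (edgeR adjusted p = 0.0642).

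The 8 largest fitted falls among site groups of at least 50 CPM in proliferating cells were 18.6-fold to 47.1-fold. On chromosome 9, minus strand, the group led by 14562635 had 1.39 and 0.723 CPM in differentiated libraries, against 50.1 and 50.2 CPM in proliferating libraries (log2 fold change -5.56, SE 0.31). The single site at 55298549 on chromosome 6, plus strand, had 9.72 and 11.1 CPM in differentiated and 372 and 412 CPM in proliferating libraries (log2 fold change -5.23, SE 0.15). The group led by 135701302 on chromosome 4, plus strand, was abundant before it fell, with 49.98 and 48.9 CPM in differentiated libraries and 1608 and 1296 CPM in proliferating libraries (log2 fold change -4.87, SE 0.12). The other 5 of the 8 lay between -5.19 and -4.22. Their mean levels in untreated C2C12 cells of the siRNA experiment ranged between 126 and 997 CPM for the 8 groups.

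Untreated C2C12 total RNA from that other experiment, which shares no library with this one, lay nearer to the proliferating than to the differentiated cells. On the log2 scale of CPM over library totals (plus 0.1), 10 of the 11 nuclear site groups with the largest rises and 10 of the 12 with the largest falls were nearer to their proliferating level. The median of the 11 risers was 5149 CPM in differentiated cells, 87.6 CPM in proliferating cells and 18.9 CPM in the other untreated C2C12 cells. For the 12 fallers these medians were 2052, 7411 and 6367 CPM. In untreated NIH3T3 fibroblasts and 4T1 mammary carcinoma cells the medians of the 11 risers were 6.19 and 0.492 CPM, and all 11 were nearer to the proliferating level. A riser at any level below its proliferating one counts as nearer to it, also at 0 CPM. These counts therefore do not show a level like that of proliferating cells. The 12 fallers had medians of 2924 CPM in NIH3T3 and 2764 CPM in 4T1 cells, and 4 and 5 of them were nearer to the proliferating level. Reads of NIH3T3 and 4T1 cells were counted only at the exact positions kept from the C2C12 libraries, so ends at other positions were missed.

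**Figure D2:**
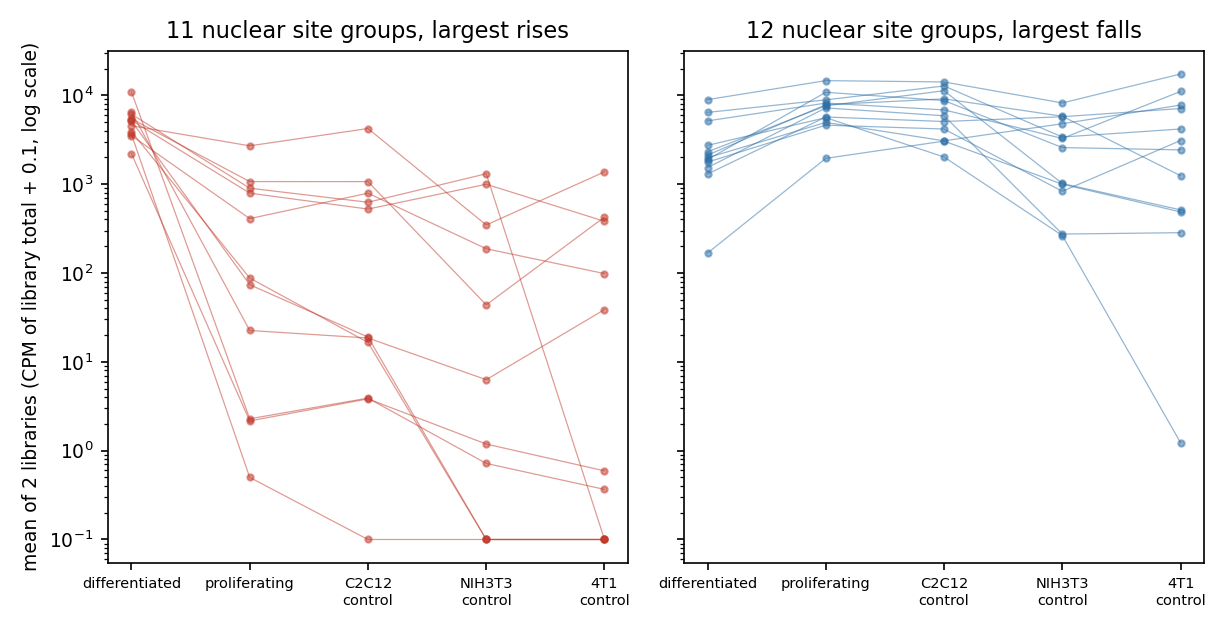
Levels of the nuclear site groups with the largest rises (left, 11 groups) and falls (right, 12 groups) in differentiated and proliferating C2C12 cells and in untreated control cells of the other experiments. Each line is a site group, each point the mean of 2 libraries in CPM of the library total plus 0.1 on a log scale. Reads were counted only at the positions kept from the C2C12 libraries. The C2C12 controls lie nearer to the proliferating than to the differentiated level for 10 of 11 and 10 of 12.

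The 10 most read sites took 7.98% ± 0.0270 of reads in differentiated and 8.80% ± 0.172 in proliferating cells, and the 1000 most read took 55.7% ± 0.136 in differentiated libraries and 54.4% ± 0.214 in proliferating libraries (SD, n = 2; exact two-sided permutation p = 0.3333, the smallest 2 against 2 libraries can give). With mitochondrial sites removed, the difference for the 10 most read sites was -1.51 percentage points (differentiated minus proliferating), against -0.815 with them. Of the 100 most read sites, 54 were shared between the states, and of the 1000 most read, 672. At 3259339 reads a library, 71427 and 72820 positions had a read in differentiated libraries, against 71362 and 74189 in proliferating libraries, with overlapping groups.

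Poly(A) site choice moved to distal sites on average. For each site group with at least 2 used sites, which held at least 5% of its reads, the 2 most used were taken as a proximal and distal pair. The distal site took 54.2% of the reads in both differentiated libraries, and 51.2% and 51.4% in proliferating libraries, as the mean over the 3651 pairs read in all 4 libraries. This is 2.86 percentage points more, with no overlap between the groups (exact permutation p = 0.3333, the smallest possible). Of 3706 pairs tested, 277 were called (7.47%). Of these, 179 moved to the distal site (4.83%) and 98 to the proximal site (2.64%) in edgeR's test of differential use (adjusted p under 0.05). The distal site became the main one, over 50% in both differentiated and under 50% in both proliferating libraries, in 43 of the called pairs, and the proximal site in 15. Counts of called pairs were lower without differentiated replicate 1 (144), differentiated replicate 2 (140) or proliferating replicate 1 (180). Site groups built over gaps of up to 2 kb gave 137 called pairs, 80 distal and 57 proximal.

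The move to distal sites was larger in pairs at least 1000 nt apart. The median change was 0.99 percentage points in 902 pairs under 200 nt apart and 0.99 in 1246 pairs 200 to under 1000 nt apart. It was 4.66 percentage points in 1464 pairs 1000 to under 5000 nt apart and 6.46 in 94 pairs at least 5000 nt apart. Pairs 1000 to under 5000 nt apart took 55.2% and 55.0% distal use in differentiated libraries and 49.7% and 50.3% in proliferating libraries. The calls of this class were 134 distal and 41 proximal, while pairs 200 to under 1000 nt apart had 23 distal and 36 proximal calls. Of the 94 most distant pairs, 26 were called (27.7%), 13 in each direction. These bins describe pairs and carry no test, and pairs far apart can lie in 2 genes or 2 last exons.

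**Figure D3:**
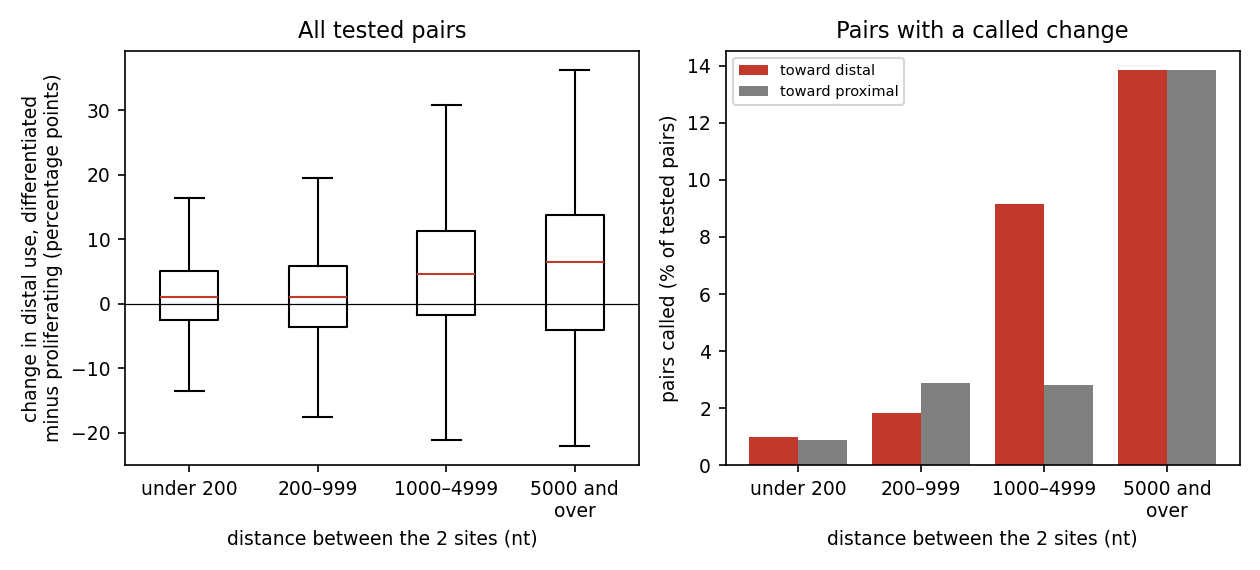
Left, change in distal use (percentage points, differentiated minus proliferating) of all tested pairs by the distance between their sites, with boxes from the lower to the upper quartile, the median as a red line and whiskers to 1.5 box lengths. Right, percentage of tested pairs with a called change in each direction. The median change is 0.99 percentage points in both classes under 1000 nt and 4.66 at 1000 to under 5000 nt, the class with 134 distal and 41 proximal calls.

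The levels of the single sites show how called pairs moved. Of the 179 pairs that moved to the distal site, the distal site alone was called higher in 52, the proximal site alone lower in 48, and both in opposite directions in 41. In 30 both sites rose, and in 8 both fell. Of the 98 pairs that moved to the proximal site, the proximal site alone rose in 27, the distal site alone fell in 26, both moved in opposite directions in 18, both fell in 21 and both rose in 6. As background, 56.0% of 19289 sites were called, 29.4% higher and 26.7% lower. Distal calls outnumbered proximal calls whichever way the level of the site group went. Site groups called higher had 66 distal and 38 proximal pairs of 1257, those called lower 66 and 37 of 1192, and those not called 47 and 23 of 1257.

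The largest move to a distal site was on chromosome X, plus strand, between 98643930 and 98648880. The distal site took 82.4% and 80.6% in differentiated libraries, against 0.233% and 0.559% in proliferating libraries (edgeR adjusted p = 1.5e-32). Its own level was 313 CPM in differentiated and 0.389 CPM in proliferating cells, while the proximal site was at 71.2 CPM in differentiated and 107 CPM in proliferating cells. A distal end that is nearly absent in proliferating cells was also seen on chromosome 1, minus strand (proximal 75487109, distal 75482400). There distal use was 82.3% and 84.3% in differentiated and 11.1% and 17.1% in proliferating libraries, and the distal site was at 43.9 CPM in differentiated and 1.17 CPM in proliferating cells.

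In other pairs the proximal end was lost. On chromosome 19, plus strand, the site at 5455946 had 4.72 and 3.86 CPM in differentiated libraries, against 107.9 and 100.7 CPM in proliferating libraries. A second upstream site, at 5458049, had 0 and 0.482 CPM in differentiated and 41.7 and 40.2 CPM in proliferating libraries. The distal site at 5465052 had 96.4 and 96.7 CPM in differentiated and 61.2 and 81.8 CPM in proliferating libraries, so that its share of the reads at 5455946 and 5465052 was 95.3% and 96.2% in differentiated libraries and 36.2% and 44.8% in proliferating libraries. On chromosome 5, plus strand, the proximal site at 121655154 was at 0.380 CPM in differentiated and 44.2 CPM in proliferating cells, and the distal site at 121658976 also fell, to 11.4 CPM in differentiated cells, against 20.3 CPM in proliferating cells. Of the sites at 74489678 and 74490357 on the same strand of chromosome 5, the proximal one had no read in either differentiated library and 35.2 CPM in proliferating cells. The 10 largest moves to the distal site spanned 679 to 9106 nt between sites and 47.7 to 81.1 percentage points.

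The largest move to a proximal site was on chromosome 9, minus strand, and involved 3 sites. Of the group's reads in differentiated libraries, the site at 66875781 took 53.5% and 54.8% and the site at 66875699, 82 nt away, 22.7% and 25.7%. The first had 1177 and 1191 CPM in differentiated libraries, against 27.0 and 20.8 CPM in proliferating libraries (log2 fold change 5.64, SE 0.14), and the second 500.1 and 558 CPM in differentiated libraries, against 5.40 and 9.09 CPM in proliferating libraries. The distal site at 66870397 had 522 and 424 CPM in differentiated libraries and 1425 and 1493 CPM in proliferating libraries (log2 fold change -1.63, SE 0.11). Its share fell to 23.7% and 19.5% of the group's reads in differentiated libraries, against 97.8% and 98.0% in proliferating libraries.

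On chromosome 4, minus strand, a proximal site at 43528554 appeared beside a distal site whose level was not called. The proximal site was at 1219 CPM in differentiated and 5.63 CPM in proliferating cells, and the distal site at 43527583 at 1100.1 CPM in differentiated and 1118 CPM in proliferating cells. Distal use was 48.2% and 46.6% in differentiated libraries, against 99.7% and 99.3% in proliferating libraries. On chromosome 10, minus strand, the proximal site at 127931213 was at 224 CPM in differentiated and 4.67 CPM in proliferating cells, and the distal site at 127927915 at 4.17 CPM in differentiated and 9.34 CPM in proliferating cells. In 2 pairs on chromosome 2 the distal site fell and the proximal level was not called. At 84511473 and 84509378 on the minus strand the distal site was at 76.9 CPM in differentiated and 543 CPM in proliferating cells, and at 164593720 and 164598407 on the plus strand at 5.35 CPM in differentiated and 35.1 CPM in proliferating cells. Of the 20 pairs with the largest changes, 5 lost their call without some library; their least read library held 20 to 41 reads of the pair. They were the pair at 24857851 and 24858971 on chromosome 17, plus strand, and the pairs at 5798394 on chromosome 19 and 102239142 on chromosome X, both minus strand, without any of the 4 libraries in turn (edgeR adjusted p between 0.0521 and 0.446). The pair at 82696088 on chromosome 10 lost it without differentiated replicate 2 (0.0550) and the pair at 30828353 on chromosome 2 without proliferating replicate 2 (0.128).

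**Figure D4:**
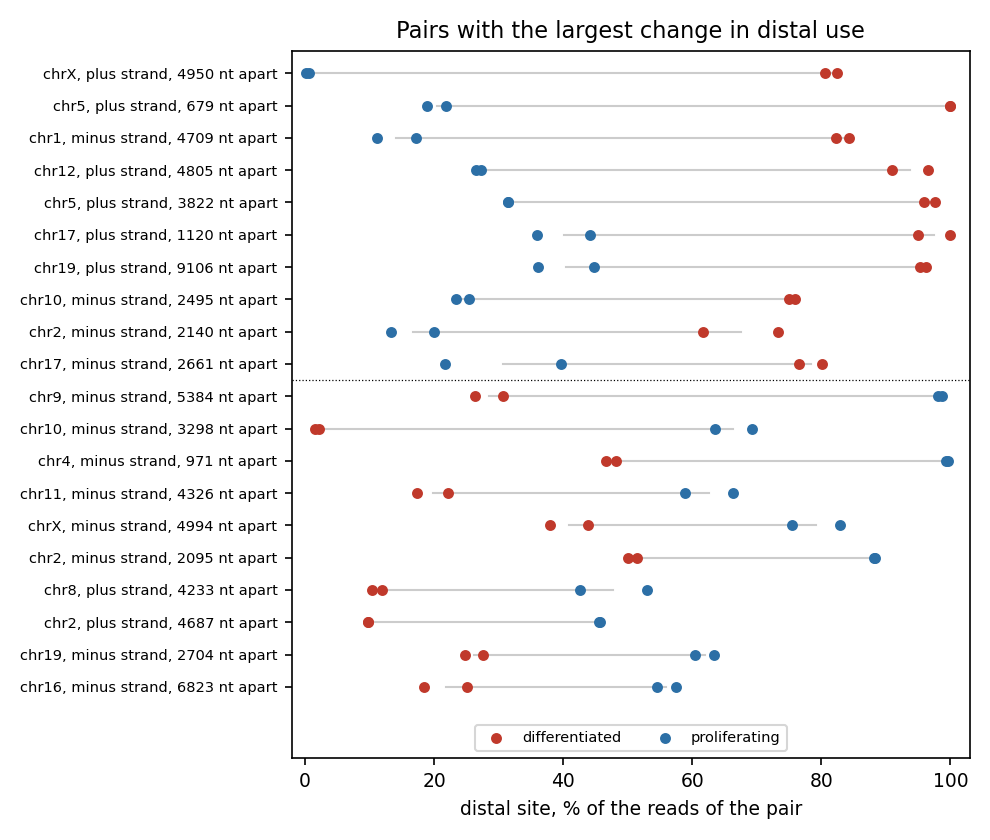
Distal use in each library (percentage of the reads of the pair) for the 10 pairs that moved most to the distal site (above the dotted line) and the 10 that moved most to the proximal site (below it), with grey lines joining the group means. The points of differentiated and proliferating libraries do not overlap in any of the 20 pairs, as the choice of pairs required.

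Untreated C2C12 cells of the siRNA experiment used these sites much as proliferating cells did. Among called pairs with at least 20 reads in both of those control libraries, 156 of 170 that moved to the distal site and 81 of 95 that moved to the proximal site were nearer to their proliferating than to their differentiated use. Median distal use of the 170 pairs was 36.6% in differentiated cells, 17.8% in proliferating cells and 17.6% in the other untreated cells.

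Libraries labelled siPcf11 allow the same pairs to be read in a separate contrast. PCF11 is a subunit of the cleavage and polyadenylation machinery, and total RNA of C2C12 cells labelled siPcf11 was set against untreated control C2C12 cells, 2 libraries each, none of them in the differentiation comparison. Of 158 pairs that moved to the distal site in differentiation and could be tested there, 56 also did so under siPcf11 (35.4%), and 7 moved to the proximal site. Of all 2563 pairs tested in both, 227 moved to the distal site under siPcf11 (8.86%) and 102 to the proximal site (3.98%). Of 83 pairs that moved to the proximal site in differentiation, siPcf11 moved 16 to the proximal site (19.3%) and 13 to the distal site (15.7%). Both shares are above those of all pairs. The 56 shared distal pairs are 24.7% of the siPcf11 list, and the 16 shared proximal pairs 19.3% of the differentiation and 15.7% of the siPcf11 list. The median change under siPcf11 was 10.8 percentage points for the 158 pairs and 3.08 for the 2322 pairs not called in differentiation. For the 83 pairs that moved to the proximal site in differentiation it was 1.47, toward the distal site. Of these 83, called or not, 49 (59.0%) changed toward the distal site under siPcf11, against 63.4% of all pairs. Pairs with many reads are called more readily in both contrasts, and the part of read number in these shares was not tested. Of the 20 pairs with the largest changes in differentiation, 3 were called under siPcf11, each in the same direction, and 8 could not be tested there. The pair on chromosome X, not tested there, had distal use of 1.09% under siPcf11 and 0.401% in controls. The pair on chromosome 9 was not called, at 99.7% under siPcf11 and 96.8% in controls. The pair at 121655154 and 121658976 on chromosome 5 was shared, with distal use of 54.8% under siPcf11 and 11.3% in controls (edgeR adjusted p = 1.4e-12). The pair at 164593720 on chromosome 2 was shared in the proximal direction, at 6.45% under siPcf11 and 28.0% in controls.

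Upstream ends were used less on average. The most 5′ used site of a site group, which may or may not lie in an intron, took 39.4% of the group's used reads in differentiated and 41.7% in proliferating cells, as the mean over 3525 site groups. Of these, 197 were called (5.59%). Use moved away from it in 124 site groups (3.52%) and toward it in 73 (2.07%). In the 2035 site groups with 2 used sites these are the same reads as the pairs above. In the 1490 with 3 or more used sites, 25 moved away and 18 toward. One large change was not among the named pairs. On chromosome 2, minus strand, the most 5′ site at 56979888 took 94.6% and 95.3% in differentiated libraries, against 15.0% and 4.35% in proliferating libraries (edgeR adjusted p = 2.5e-06), with at least 20 reads in each library. Over all used sites, 780 of 9177 changed in use (8.5%), in 613 of 3715 site groups. Leaving out differentiated replicate 1 gave 409 called single sites and 94 called most 5′ sites, and leaving out differentiated replicate 2 gave 397 and 86. Site groups built over gaps of up to 2 kb gave 435 and 97.

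The mitochondrial genome could be read against gene boundaries, though only in part. Its sequence is the same in both builds, and 8 of 15 plus-strand sites of at least 150 CPM in some library lay within 3 nt of a RefSeq gene boundary. Genes were matched by position alone, without regard to their strand, so a site named by a gene may lie opposite to it. The genome was read as linear, so a gene at its start was not matched to the site at its last position, 16299. None of the 15 lay between the end of ND2 at 4950 and the end of ND4 at 11544, so the genes between them are not described. These sites were chosen after their values were seen. Mitochondrial RNA is transcribed as long precursors, which are cut mostly at tRNAs, and the mRNAs, and some rRNA, then receive short poly(A) tails. Plus-strand reads made up 3.85% and 4.11% of differentiated and 2.82% and 2.95% of proliferating libraries. Of 268 plus-strand sites tested, 166 were higher and 8 lower, while outside the mitochondrial genome 28.9% of sites were higher and 27.1% lower. Of 50 minus-strand sites, 14 were higher and 3 lower.

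The rise was uneven along the plus strand. The end of ND4, which encodes a subunit of respiratory complex I, was the most read site of the differentiated libraries, with 17351 and 17828 CPM in differentiated libraries, against 10147 and 10429 CPM in proliferating libraries (log2 fold change 0.77, SE 0.09, edgeR adjusted p = 2.7e-09). The end of CYTB, the cytochrome b of complex III, had 498 and 734 CPM in differentiated libraries and 328 and 384 CPM in proliferating libraries (log2 fold change 0.78, SE 0.13). The ends of ND1 and ND2, also complex I subunits, were not called, with log2 fold changes of 0.21 and 0.13. The end of ND1 was called higher without differentiated replicate 1 (0.33) or proliferating replicate 2 (0.30), and that of ND2 without proliferating replicate 1 (0.24). The site at the boundary of TrnQ and TrnM had 2962 and 2811 CPM in differentiated and 1760 and 1809 CPM in proliferating libraries (log2 fold change 0.69, SE 0.10).

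The 3′ end of the small ribosomal RNA, mt-Rnr1, differed most among the sites at gene boundaries. It had 1028 and 952 CPM in differentiated libraries, against 158 and 152 CPM in proliferating libraries (log2 fold change 2.67, SE 0.11, edgeR adjusted p = 5.7e-23). A site inside the same gene, at 718, moved the other way, with 81.4 and 77.6 CPM in differentiated libraries and 336 and 294 CPM in proliferating libraries (log2 fold change -1.99, SE 0.12). The end of the large ribosomal RNA, mt-Rnr2, differed far less, with 486 and 537 CPM in differentiated and 308 and 454 CPM in proliferating libraries (log2 fold change 0.42, SE 0.12). Its call, with an adjusted p of 0.0040 in edgeR, was lost with library totals, with DESeq2, without differentiated replicate 2 and without proliferating replicate 1 (adjusted p 0.0511 to 0.232). At the start of CYTB, the site at 14145 had a log2 fold change of 0.32, called in edgeR but not with library totals or without differentiated replicate 2.

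Past the last listed gene of the linear sequence, 3 plus-strand sites rose together. The sites at 15929, 15964 and 16299 were at 375, 220.2 and 199 CPM in differentiated cells and 122, 53.9 and 40.6 CPM in proliferating cells, with log2 fold changes of 1.62, 2.03 and 2.28. The main minus-strand site, at 16123, had 4641 and 4141 CPM in differentiated libraries and 3994 and 5481 CPM in proliferating libraries, so that the groups overlapped (log2 fold change -0.12, SE 0.11). Its change depended on the proliferating libraries, at -0.33 and called without replicate 1, and 0.11 and not called without replicate 2.

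**Figure D5:**
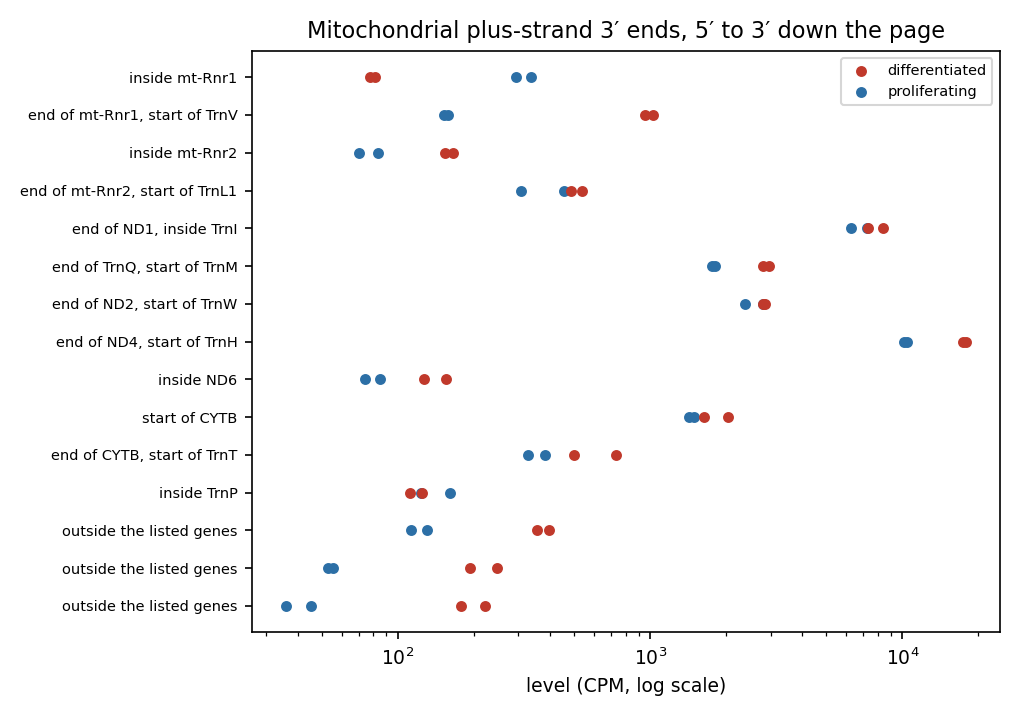
Levels (CPM after TMM scaling, log scale) of the 15 mitochondrial plus-strand sites of at least 150 CPM in some library, in each of the 2 differentiated and 2 proliferating libraries, in order along the genome and named by the RefSeq gene within 3 nt or around them. Names go by position alone, without regard to the strand of the gene. The end of mt-Rnr1 is higher in both differentiated libraries and the site inside it lower, while the ends of ND1 and ND2 lie close together.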

How the data were processed

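The 3′READS libraries, made from total RNA per the labels, were deposited by the authors as whole-number read counts per chromosome, strand and poly(A) position, per the file headers, without normalization. Cutadapt, Bowtie2, STAR and the build mm9 are named in the submitters' processing notes. The sources used here give neither versions nor roles for these tools, nor whether positions were clustered. Columns were used as deposited.

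Kept sites, site groups and pairs were defined as in the report. Counts were tested with edgeR 4.0.16 (limma 3.58.1, R 4.3.3) on the 4 libraries alone, with TMM scaling, filterByExpr (minimum count 10) and quasi-likelihood F-tests for levels, and diffSpliceDGE for site use. CPM was scaled by TMM unless library totals are named. Counts of site groups past a fold used the fitted fold, or, with no read in a state, the fold against 3 reads over its libraries. A standard error is the log2 fold change divided by the square root of F. DESeq2 1.42.0, other scalings, filters, gaps and left-out libraries were alternatives. Tables and plots used Python 3.11.15, pandas 2.3.3, numpy 2.4.6, scipy 1.17.1 and matplotlib 3.10.9. The 3′READS counts of the other cell lines served only for comparison, and the RNA-seq files were not used. No mm9 genome was used, so no sequence is printed.

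Replicates differed beyond counting noise (chi-square per degree of freedom 1.83 in differentiated and 2.50 in proliferating cells). Both tests were run on simulated counts with 200 changed features. The level test recovered 75.5% of 2-fold and 99.0% of 4-fold changes of site groups (11535 tested), and the pair test 4.49% and 41.1% (3597 tested). A pair that was not called may therefore still differ. The simulated spread was the same fixed value for every feature and was not taken from these replicates, so the shares in these data may differ.

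Named site groups had an adjusted p under 0.05 and no overlap: the 12 with the largest CPM difference in each direction, and the 8 with the largest fitted fold among those of at least 50 CPM in the higher group. Named pairs were the 10 with the largest change in each direction with at least 20 reads in each library, and named most 5′ sites the 4 in each direction. The members, rules and lists were chosen with earlier results of these data known. The untreated C2C12, neighbour, siPcf11 and mitochondrial comparisons were added after the data were seen.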

Additional observations from a re-analysis of the deposited data

How the results depend on the processing

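Counts of called levels stayed within 1.5 times the main count under every alternative run, 5662 to 8121 for site groups and 7439 to 12605 for single sites. Leaving out each library gave 397 to 593 called single sites in use, 140 to 208 pairs and 86 to 166 most 5′ sites. Gaps of up to 2 kb gave 435, 137 and 97, and a mean gain in distal use of 2.05 percentage points, while used sites of at least 10% gave 3.25. With mitochondrial sites removed, the difference in the share of the 10 most read sites was -1.51 percentage points, and of the 100 most read 0.00274. DESeq2 size factors, library totals, no low-count filter, gaps of 10 kb and sites kept from the 4 libraries alone left the counts of pairs, most 5′ sites and single sites in use within 1.5 times. The replicate number as a block gave 7445 site groups, 857 single sites in use, 312 pairs and 226 most 5′ sites; same-numbered libraries deviated together only weakly (r = 0.06 over 11760 site groups, 2 pairs of libraries), and no label pairs them. The block also called the end of ND1 (log2 change 0.21, edgeR adjusted p = 0.0301, against 0.0686 without it) and the mitochondrial sites at 15412 (-0.27) and 16169 on the minus strand (0.25). Of named site groups, 498 checks kept call and direction and 1 lost its call, and of named pairs 207 and 15. Of named results, direction turned at 3 uncalled mitochondrial sites. At 4950 the log2 change was -0.0086 with library totals, and -0.012 to 0.24 over the left-out libraries. On the minus strand it was -0.33 to 0.11 at 16123 and -0.013 to 0.50 at 16169. The cause was not tested. Counts were simulated at these depths with the same fixed spread for every feature. In them 41.1% of 4-fold changes of pairs were recovered, and what sets this share was not tested.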
